A study of Rattus norvegicus with 18 samples.

Results

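The cultures compared here are the latest stage of an Illumina RatRef-12 expression series, day 4 of oligodendrocyte differentiation in the presence of PD169316, set against day 0. The members were taken from the sample titles and are 6 of the 18 arrays, 3 of day 4 cultures with PD169316 and 3 of day 0 cultures. All were primary oligodendrocyte progenitors (OLPs) prepared from newborn Sprague-Dawley rat brain, so every array is of a mixed primary culture that is enriched for, and not restricted to, one lineage. PD169316 inhibits the p38α and p38β MAP kinases. OLPs were expanded in serum-free medium with the mitogens PDGF-AA and bFGF, and differentiation was started by withdrawing both, so the day 4 cultures had passed through mitogen withdrawal, 4 days in culture and the inhibitor, while the day 0 cultures had none of these. No day 4 array without PD169316 was analysed here, and the effects of time, mitogen withdrawal and inhibitor therefore cannot be told apart in the comparison of day 4 with day 0. The treatment note in the labels mentions only exposures of 1 and 2 days, whereas the study's legends for qRT-PCR describe exposure up to the latest stage. The other arrays used for comparison are 3 of day 1 and 3 of day 2 cultures with PD169316, and the rest are 3 day 1 and 3 day 2 controls, which according to the methods received the DMSO vehicle. Nothing in the labels says whether the 3 arrays of a group came from separate litters or cultures, and the p-values then measure the spread between these arrays, which may be partly technical.

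Oligodendrocytes are the myelin-forming glia of the central nervous system. Their progenitors divide under PDGF and FGF, carry the PDGF receptor α and the NG2 proteoglycan, and on mitogen withdrawal leave the cell cycle, switch off progenitor genes and turn on the proteins and lipids that make up the myelin sheath. In cultured OLPs the p38 kinases are known as regulators of this step.

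On each array the probes detected at p under 0.01 numbered 9789 to 10773, with 10184 to 10473 on the day 4 arrays and 10143 to 10683 on the day 0 arrays. A median of 42 to 43 beads stood behind each probe, and no pair of arrays held identical values. The day 4 arrays correlated with each other at 0.992 to 0.997 and the day 0 arrays at 0.995 to 0.997 over the probes kept, and day 4 array 2 lay furthest along the first principal component (51.1% of the variance), at 43.6 against 34.5 and 33.2 for day 4 arrays 1 and 3. Among the other arrays, array 3 of the day 2 control lay with arrays 2 and 3 of day 2 PD169316 (first component -0.82 against -1.90 and -2.36), and array 1 of day 2 PD169316 lay with the other day 2 controls (26.1 against 23.9 and 24.0). These day 2 libraries stand apart from the rest of their labelled groups. Whether their labels were exchanged is not known, the labels were kept, and the comparisons with day 2 are also given without them. A linear model was fitted to all arrays together, with a shared residual variance for each probe. These libraries therefore also enter the standard errors and p-values of the comparisons with day 0 and day 1.

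Day 4 PD169316 cultures differed from day 0 cultures over much of the array. Of 10574 probes tested with limma, 2450 (23.2%) were called higher and 2908 (27.5%) lower at a Benjamini-Hochberg adjusted p under 0.05, and the values of the 3 day 4 and 3 day 0 arrays did not overlap for 6571 probes (62.1%). Differences of at least 2-fold were called for 711 probes in the upward and 685 in the downward direction, and of at least 4-fold for 176 and 85 probes. The median log2 difference over all probes was -0.03. With the deposited intensities on the log2 scale, neither background-corrected nor quantile-normalized, the median was -0.12 and 1164 probes were called higher and 2354 lower. With each deposited array centred on its median, 2503 were called higher and 2505 lower. The log2 differences below, day 4 PD169316 minus day 0, are of background-corrected, quantile-normalized log2 intensity, and SE is the standard error of the fit. Since 5358 of the 10574 probes were called, a count of called members is read against the percentages above.

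The greatest rises included many myelin and oligodendrocyte genes. The 15 greatest among genes whose arrays did not overlap ranged from a log2 difference of 6.38 for *Mal*, a raft-associated proteolipid of compact myelin, to 3.65 for *Mog*, a surface glycoprotein of the outer myelin lamella. *Mal* read 11.67, 12.66 and 11.70 log2 units on the day 4 PD169316 arrays and 5.81, 5.44 and 5.64 on the day 0 arrays, where it was detected on 2 of 3. The groups did not overlap, and the fitted difference was 83.2-fold (SE 0.20 on the log2 scale, adjusted p = 8.3e-12). *Mobp*, a basic protein of compact myelin, read 14.20, 14.67 and 14.04 at day 4 with PD169316 and 8.68, 8.82 and 8.80 at day 0 (log2 difference 5.54, SE 0.39, adjusted p = 3.6e-08). *Mog* read 12.88, 13.40 and 12.79 at day 4 with PD169316 and 9.15, 9.43 and 9.53 at day 0, a 12.6-fold difference. For all 3 genes day 4 array 2 was the highest of its group. *Opalin*, a membrane protein found in myelinating oligodendrocytes, was not detected on any day 0 array and read 9.40, 9.93 and 9.40 at day 4 with PD169316, at least 16.5-fold higher than the detection limit of the day 0 arrays (adjusted p = 8.2e-09). Such bounds set the day 4 mean against the lowest signal among probes detected on each undetected array, or the probe's own signal where that was higher.

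The remaining genes of the leading 15 serve several compartments of the cell. *Hapln2*, a link protein of the perinodal matrix, rose by 4.99 on the log2 scale, *Gpr37*, an orphan receptor of maturing oligodendrocytes, by 4.90, and *Lpar3*, a lysophosphatidic acid receptor, by 4.79. *Ppp1r14a*, an inhibitor of myosin phosphatase, rose by 4.58, *Spock1*, a secreted proteoglycan, by 4.55, and *Pip* by 4.50. *Tmem125* (4.33), *Plekhh1* (4.12), *Cdc42ep2* (4.08), an effector of the small GTPase Cdc42, *Ermn* (3.98), an actin-binding protein of the myelin sheath, and *Apln* (3.96), which encodes the peptide apelin, completed the group. Each of the 11 was detected on all day 4 arrays, and only *Pip* was missed on a day 0 array.

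Compact myelin genes and genes of mature oligodendrocytes moved upward as groups. Of 8 compact myelin genes measured, 7 were called higher and 0 lower, with a median log2 difference of 1.63, against -0.03 over all probes. *Mbp*, the myelin basic protein that joins the cytoplasmic faces of the membrane, read 13.99, 14.39 and 13.79 at day 4 with PD169316 and 11.49, 11.60 and 11.17 at day 0, a 6.23-fold difference (SE 0.30 on the log2 scale, adjusted p = 4.2e-06). *Cldn11*, the tight junction claudin of myelin, was 3.20-fold higher, and *Cnp*, a cytoplasmic enzyme of the sheath, was 1.40-fold higher. *Pmp22* differed by -0.17 and did not pass the test. Of 30 genes of mature oligodendrocytes, 24 were called higher and 1 lower (median 1.60). *Mag*, the adhesion molecule facing the axon, read 10.27, 10.52 and 10.20 at day 4 with PD169316 and 7.15, 7.54 and 7.51 at day 0 (log2 difference 2.93, SE 0.35). *Aspa*, which splits N-acetylaspartate, rose by 3.11, *Ndrg1* by 2.88, *Gsn*, the actin-severing gelsolin, by 2.50 and *Cryab*, a small heat shock protein, by 2.40. The member that ran the other way was *Efnb3*, an ephrin ligand, at 7.61, 7.56 and 7.78 in day 4 PD169316 cultures and 10.08, 9.92 and 9.98 in day 0 cultures (log2 difference -2.34, adjusted p = 4.1e-07). *Omg*, *Tf*, *Gstp1*, *Plekhb1* and *Ninj2* differed by 0.05, 0.29, -0.06, -0.02 and -0.16 and were not called, although *Tf* was without day 4 array 3 (0.39).

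**Figure D1:**
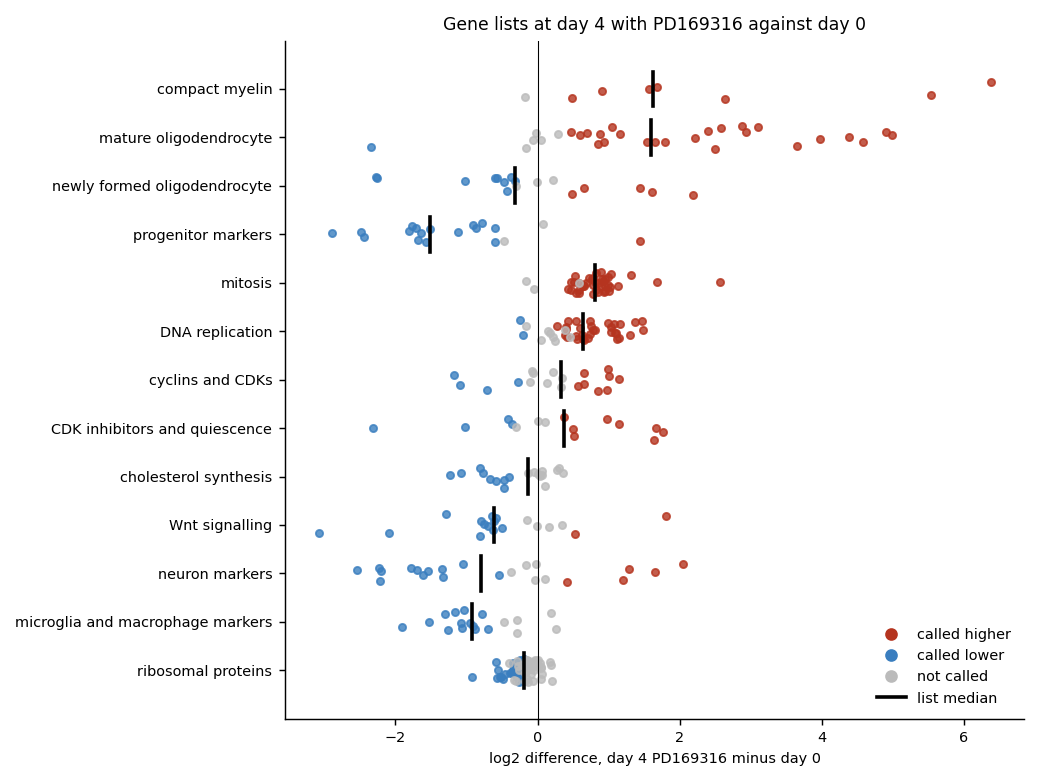
Log2 difference of each measured gene, day 4 PD169316 minus day 0 (x axis), in 13 gene lists (rows). Red points were called higher, blue points lower and grey points not called, and the black bar is the list median: 1.63 for compact myelin, -1.51 for progenitor markers and 0.81 for mitosis.

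Genes of newly formed oligodendrocytes did not move together. Of 17 measured, 5 were called higher and 9 lower, with a median of -0.31. *Rras2*, a Ras-related GTPase, rose by 2.18, *Enpp6*, a choline phosphodiesterase of newly formed oligodendrocytes, by 1.61 and *Cnksr3* by 1.44. *Neu4*, a sialidase detected on 2 of 3 day 4 arrays, fell by 2.27, *Prom1*, which marks membrane protrusions, by 2.26 and was not detected at day 4 (at least 3.37-fold lower), and *Vcan*, the versican proteoglycan, by 1.02. *Fyn*, the Src-family kinase that links axonal contact to *Mbp* translation, read 11.65, 11.47 and 11.55 at day 4 with PD169316 and 12.07, 12.22 and 12.15 at day 0 (1.51-fold lower, adjusted p = 0.00081).

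Progenitor genes were lower at day 4 with PD169316. Of 19 measured, 16 were called lower and 1 higher, with a median log2 difference of -1.51. *Cspg4*, which encodes NG2, read 9.13, 8.73 and 9.12 in day 4 PD169316 cultures and 12.10, 11.73 and 11.85 in day 0 cultures, 7.45-fold lower (SE 0.37 on the log2 scale, adjusted p = 1.3e-05). *Pdgfra*, the receptor for the withdrawn mitogen PDGF-AA, read 11.13, 10.75 and 11.12 at day 4 with PD169316 and 12.83, 12.54 and 12.70 at day 0 (3.22-fold lower, adjusted p = 3.3e-06). Both remained detected on every day 4 array. *Rlbp1* fell by 2.49, *C1ql1*, a secreted C1q-domain protein of OLPs, fell by 2.45, *Dpysl3* fell by 1.80, and the SoxD factor *Sox6* and SoxC factor *Sox11* by 1.56 and 1.51. *Nes*, the intermediate filament nestin, went against its list, with 9.33, 9.88 and 9.31 at day 4 with PD169316 and 7.68, 8.20 and 8.34 at day 0 (log2 difference 1.44, adjusted p = 3.1e-05). *Vim* differed by 0.08 and *Sox4* by -0.47, and neither was called, although *Sox4* was without day 0 array 2 (-0.68). In a bulk culture, fewer cells of a type and less RNA per cell cannot be told apart.

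**Figure D2:**
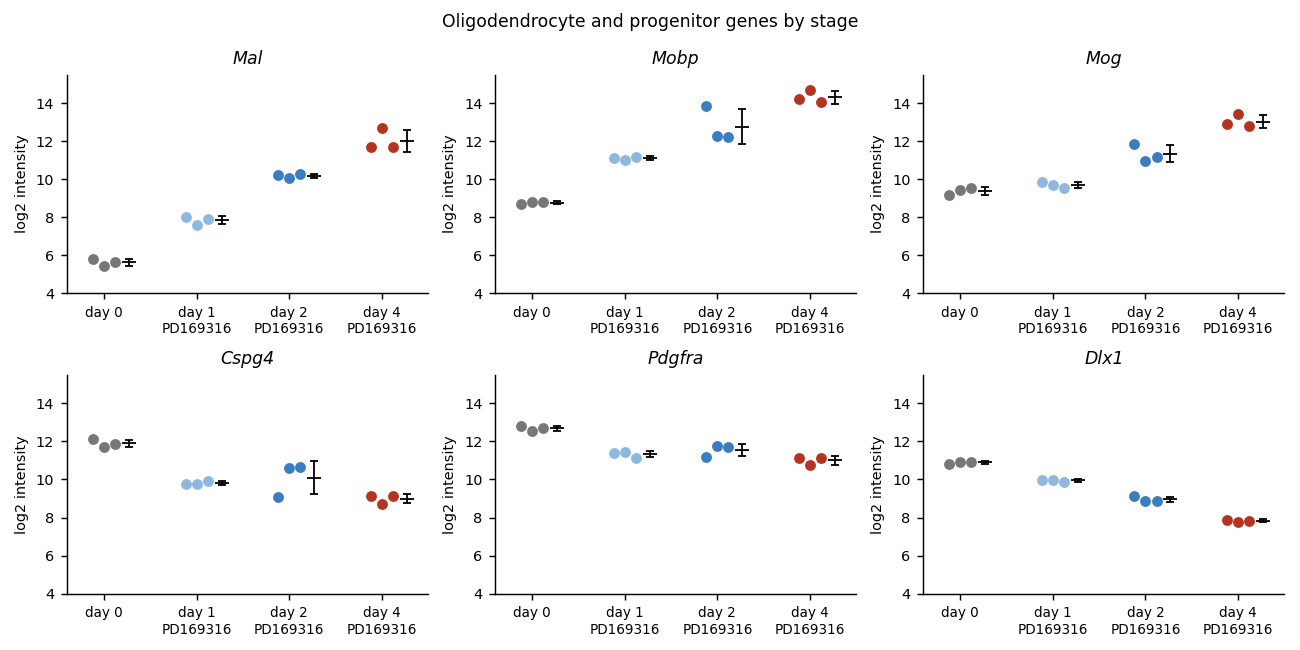
Normalized log2 intensity of 6 genes (y axis) at day 0 and at day 1, day 2 and day 4 with PD169316 (x axis), with 1 point per array and the mean and SD of 3 arrays beside each group. *Mal*, *Mobp* and *Mog* are highest at day 4, and *Dlx1* is lowest there with no overlap between stages. At day 2 the first array lies apart from the others for *Mobp* and *Cspg4*.

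Of 22 transcriptional regulators of the lineage, 5 were called higher and 11 lower (median -0.30). The rises were of *Nkx6-2*, a homeobox factor of myelinating cells (2.04), *Hdac11*, a histone deacetylase (1.94), *Thrb*, a thyroid hormone receptor (1.31), *Yy1* (0.48) and *Thra* (0.35). *Nkx6-2* read 13.02, 13.66 and 13.12 at day 4 with PD169316 and 10.81, 11.49 and 11.40 at day 0, a 4.10-fold difference. The factors that specify the lineage were called lower: *Olig1* by 0.28, *Olig2* by 0.59, *Sox10* by 0.47 and its relative *Sox8* by 1.06 on the log2 scale. Of 14 genes listed as inhibitors of differentiation, 7 were called lower and 1 higher. *Dlk1*, a Notch ligand relative, fell by 1.86, *Notch1* by 1.27 and *Lingo1*, a repeat protein that restrains myelination, by 1.22. *Hes1*, a Notch target that was not detected at day 4, fell by 0.59 (at least 1.14-fold lower). *Tcf4*, which the study counts among the repressors of differentiation, fell by 0.88. *Id2* (-0.33), *Id1* (-0.12) and *Id3* (-0.16), inhibitors of helix-loop-helix factors, were not called, and *Jag1*, a Notch ligand, rose by 0.40. Near the threshold, *Thra* was not called without day 4 array 2 (0.34), day 0 array 1 (0.32) or day 0 array 3 (0.31), and *Jag1* was not called without day 4 array 1 or 3 (0.34 each) or day 0 array 1 (0.36).

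The 15 genes with the greatest falls ranged from a log2 difference of -3.62 for *Cfap52* to -2.62 for *Scrt1*. *Cfap52*, a ciliary protein, read 6.69, 7.13 and 6.73 in day 4 PD169316 cultures and 10.46, 10.53 and 10.43 in day 0 cultures (log2 difference -3.62, SE 0.28, adjusted p = 7.3e-08). *Tmem255b* was not detected on any day 4 array and was at least 6.08-fold lower. *Dlx1*, a homeobox factor of forebrain interneuron precursors, read 7.90, 7.75 and 7.83 at day 4 with PD169316 and 10.80, 10.95 and 10.94 at day 0 (8.39-fold lower, SE 0.10 on the log2 scale, adjusted p = 1e-11). *Pcp4*, a calmodulin regulator, fell by 3.28, *Smoc1*, a secreted matricellular protein, by 3.15, *Sfrp2*, a secreted Wnt antagonist, by 3.08 and *Dync1i1*, a dynein intermediate chain, by 3.01. *Brinp3* (-2.95), *Me3* (-2.92), *Dscam* (-2.74), *Brinp1* (-2.67), *Synpr* (-2.67), *Sorcs3* (-2.64) and *Scrt1*, together with *Cspg4*, completed the 15. *Smoc1* and *Brinp3* were each detected on 2 of the 3 day 4 arrays.

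Neuronal markers were mostly lower as well. Of 22 neuron markers, 12 were called lower and 5 higher, with a median of -0.79, and the summed normalized intensity of the list was 10494 to 11251 on the day 4 PD169316 arrays and 27082 to 29391 on the day 0 arrays. *Ina*, a neurofilament-related protein, fell by 2.54, *Gad1*, which makes GABA, by 2.22, *Stmn2* and *Stmn3*, tubulin-binding stathmins, by 2.21 each, and *Syp*, synaptophysin, by 1.79. *Gad1* read 9.87, 9.76 and 9.82 at day 4 with PD169316 and 12.06, 11.99 and 12.07 at day 0, with no overlap. Of the defining markers, *Snap25* fell by 1.04, while *Syt1* differed by -0.04 and *Rbfox3* by -0.02, neither called, and all 3 were detected in both groups. The members that rose were *Stmn4* (2.05), *Syt4* (1.65), *Thy1* (1.29, not detected at day 0, at least 1.70-fold higher), *Elavl3* (1.21) and *Nefm* (0.42). *Nefm* was not called without day 4 array 1 (0.35) or day 0 array 2 (0.36). Of 32 transmitter receptors, 11 were called lower and 4 higher, among them the glutamate receptor subunit *Grin1* (-2.35, detected on 1 of 3 day 4 arrays) and the GABA receptor subunit *Gabra5*, which was not detected at day 4 and was at least 3.41-fold lower.

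Markers of other cell types were measured beside these genes, and their part in the differences above was not tested. Of 18 microglia and macrophage markers, 13 were called lower and 0 higher (median -0.93), and their summed normalized intensity was 25890 to 45767 in day 4 PD169316 cultures and 49507 to 56914 in day 0 cultures. The highest of the day 4 sums, 45767, was that of array 2, which was also the highest for the myelin genes named above. *Fcgr2b*, an Fc receptor, was not detected at day 4 (at least 1.90-fold lower), and *Cd53* fell by 1.53. *C1qa* read 10.20, 11.42 and 10.26 at day 4 with PD169316 and 11.35, 11.62 and 11.65 at day 0, so the groups overlapped although the gene was called (log2 difference -0.91, adjusted p = 0.0089), and *Aif1* differed by -0.47 and was not called. *Cx3cr1*, whose probe did not pass the detection filter, and *Cd68* were not tested. Without day 4 array 1, *C1qa* was not called (-0.70), and without day 4 array 2, *Aif1* was (-0.82). Both genes were detected on every day 4 and day 0 array.

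Astrocyte markers were mixed, with 6 of 16 called higher and 4 lower (median 0.05), or 2 lower without day 4 array 2. Their summed normalized intensity was 30841 to 42700 in day 4 PD169316 cultures and 50518 to 55760 in day 0 cultures. The sum is carried by the brightest genes. The mean level of the list went the other way, at 9.43 ± 0.20 log2 units at day 4 with PD169316 and 9.22 ± 0.06 at day 0 (SD). *Gfap*, the astrocyte intermediate filament, fell by 0.42 but was not called without day 4 array 2 (-0.31), and *Aqp4*, a water channel of astrocyte endfeet, rose by 1.18. Of 11 fibroblast, mural and endothelial markers, 6 were called higher and 1 lower (median 1.01), with sums of 16592 to 23989 at day 4 with PD169316 and 11724 to 12866 at day 0. *Col1a2*, a fibrillar collagen chain, rose by 2.06, *Col3a1* by 1.28 (detected on 2 of 3 day 0 arrays) and *Lum*, lumican, by 1.19 (detected on 1 of 3), while *Cldn5*, the endothelial claudin, differed by 0.03 and was not called. *Ptgds*, a prostaglandin synthase of meninges and oligodendrocytes, was the largest member difference at 3.21, and *Mgp*, a matrix Gla protein, fell by 0.99. Of 4 Schwann cell markers 3 were called higher and 0 lower, with sums of 1553 to 1942 at day 4 with PD169316 and 708 to 837 at day 0, and *Ngfr*, the low-affinity neurotrophin receptor, rose by 2.58.

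Cell cycle genes were higher at day 4 with PD169316 than at day 0, on the same arrays on which the progenitor genes were lower. Of 43 genes of mitosis, the spindle and the kinetochore, 40 were called higher and 0 lower, with a median log2 difference of 0.81, and 36 had non-overlapping arrays. The 3 that were not called were *Ncapd2* (-0.17), *Cenpf* (-0.05) and *Cdca3* (0.59), of which *Cdca3* was called without day 4 array 2 (0.86) or day 0 array 3 (0.82). The mean level of the list was 8.33, 8.09 and 8.31 log2 units on the day 4 PD169316 arrays and 6.90, 7.68 and 7.72 on the day 0 arrays, so day 0 array 1 was the lowest and day 4 array 2 the lowest of its own group. Without day 0 array 1 the median was 0.54 and 33 of the 43 genes were called. In a fit of the day 4 and day 0 arrays alone, 29 were called higher. *Fam83d*, a spindle protein, rose by 2.57, *Plk4*, the kinase of centriole duplication, by 1.68, *Cdca5*, the cohesin regulator sororin, by 1.32 (not detected at day 0, at least 1.52-fold higher) and *Kif20b*, a mitotic kinesin, by 1.14. *Fam83d*, *Plk4* and *Kif20b* were each detected on 2 of the 3 day 0 arrays. *Aurkb*, the kinase of the chromosomal passenger complex, read 9.90, 9.55 and 9.94 at day 4 with PD169316 and 8.35, 8.94 and 9.24 at day 0 (log2 difference 0.96, SE 0.17, adjusted p = 0.00024).

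Of 42 genes of DNA replication, 32 were called higher and 2 lower (median 0.63), and the mean level of the list was 8.37 ± 0.07 log2 units at day 4 with PD169316 and 7.71 ± 0.17 at day 0 (SD, n = 3 each). *Mcm3*, a subunit of the replicative helicase, read 7.26, 7.08 and 6.92 at day 4 with PD169316 and 5.36, 5.82 and 5.64 at day 0, with 2 of the 3 day 0 arrays above detection, a 2.80-fold difference (adjusted p = 1.8e-07). *Fen1*, the flap endonuclease, rose by 1.47, *Exo1*, an exonuclease detected on 2 of 3 day 0 arrays, by 1.37, *Gins1*, a helicase partner, by 1.30 and *Rrm2*, the ribonucleotide reductase subunit, by 1.15. *Pcna*, the sliding clamp, rose by 0.39. The members that fell were *Dnmt1*, the maintenance DNA methyltransferase, by 0.24 and *Rpa3* by 0.21. Neither call held without day 4 array 2 (-0.17 for *Dnmt1*, -0.18 for *Rpa3*) or day 0 array 2 (-0.23 and -0.17), and *Dnmt1* was not called without day 0 array 3 (-0.23) nor *Rpa3* without day 4 array 3 (-0.20). With the deposited intensities as they stand, 14 mitosis and 14 DNA replication genes were called higher, and with each deposited array centred on its median 41 and 33 were.

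The promoters of these groups are shown because their members moved in the same direction at day 4. Periodic cell cycle genes are known to carry the CHR element TTTGAA and CCAAT boxes in promoters active in G2 and M phase, and E2F sites in promoters active at the G1/S transition. RefSeq promoters of the rat GRCr8 assembly, 250 bases before to 50 bases after the gene start, were matched by symbol for 35 of the 43 mitosis and 36 of the 42 DNA replication genes. On either strand, TTTGAA was in 26 of the 35 mitosis promoters (74.3%), in 4 of the 36 replication promoters (11.1%) and in 18.3% of all 33469 promoters. CCAAT was in 24 of the mitosis promoters (68.6%), 21 of the replication promoters (58.3%) and 37.5% of all. It was also in 11 of 15 cholesterol synthesis promoters (73.3%) and 9 of 13 progenitor marker promoters (69.2%), lists with more genes called lower than higher. Compact myelin genes held it in 3 of 8 promoters (37.5%) and mature oligodendrocyte genes in 10 of 22 (45.5%). In these same lists TTTGAA was in 1 (6.67%), 4 (30.8%), 0 and 0 promoters. TTTGGCGC or TTTCCCGC was in 16 of the replication promoters (44.4%), in 0 of the mitosis promoters and in 1.45% of all. The lists were reduced to a single promoter per symbol. The 33469 were not, and they were not restricted to the genes measured. No motif searched lies within another, and a match describes the window only. Below are the promoters of the 2 called genes with the greatest difference in each group that hold the motifs, *Fam83d* (chr3:167841542-167841841, plus strand) and *Kif20b* (chr1:241840766-241841065, plus strand) for mitosis, with TTTGAA and CCAAT on either strand in capitals, and *Mcm3* (chr9:30733697-30733996, minus strand) and *Gins1* (chr3:160184670-160184969, plus strand) for DNA replication, with the E2F-type letters on either strand in capitals. In *Gins1* a match on one strand overlaps a match on the other.
Fam83d: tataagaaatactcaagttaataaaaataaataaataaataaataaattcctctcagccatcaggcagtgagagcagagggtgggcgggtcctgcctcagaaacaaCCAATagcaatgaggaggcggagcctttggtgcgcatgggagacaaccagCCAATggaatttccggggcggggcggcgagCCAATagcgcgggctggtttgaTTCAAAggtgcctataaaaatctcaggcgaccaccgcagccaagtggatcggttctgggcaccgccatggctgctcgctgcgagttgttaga
Kif20b: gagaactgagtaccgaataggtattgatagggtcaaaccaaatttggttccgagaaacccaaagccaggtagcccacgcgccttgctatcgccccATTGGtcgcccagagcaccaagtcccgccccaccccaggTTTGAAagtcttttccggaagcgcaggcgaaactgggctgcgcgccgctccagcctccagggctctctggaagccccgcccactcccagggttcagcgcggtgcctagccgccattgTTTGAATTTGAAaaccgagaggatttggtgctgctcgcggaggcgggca
Mcm3: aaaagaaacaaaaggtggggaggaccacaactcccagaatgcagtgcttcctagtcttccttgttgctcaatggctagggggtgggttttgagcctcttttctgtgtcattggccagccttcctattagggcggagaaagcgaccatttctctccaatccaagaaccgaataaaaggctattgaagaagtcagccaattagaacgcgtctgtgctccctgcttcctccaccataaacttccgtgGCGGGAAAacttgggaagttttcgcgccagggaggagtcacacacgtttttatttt
Gins1: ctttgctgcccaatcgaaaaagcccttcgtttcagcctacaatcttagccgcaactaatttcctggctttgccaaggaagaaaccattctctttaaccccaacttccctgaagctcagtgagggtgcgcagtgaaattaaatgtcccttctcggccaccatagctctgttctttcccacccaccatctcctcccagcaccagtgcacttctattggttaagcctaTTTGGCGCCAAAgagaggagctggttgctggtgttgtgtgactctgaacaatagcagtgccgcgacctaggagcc

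Cyclins, cyclin-dependent kinases and their regulators moved both ways. Of 19 measured, 8 were called higher and 4 lower. *Cdk1*, the mitotic kinase, read 11.43, 11.14 and 11.38 at day 4 with PD169316 and 9.86, 10.79 and 10.77 at day 0 (1.80-fold higher, SE 0.18 on the log2 scale, adjusted p = 0.00093). *Ccna2*, the cyclin of S and G2 phase, read 8.98, 8.74 and 8.99 at day 4 with PD169316 and 7.20, 8.36 and 8.23 at day 0, a 1.97-fold difference. For both genes the groups did not overlap and day 0 array 1 was the lowest of all. *Ccnf* rose by 1.14, *E2f1*, the G1/S transcription factor, by 1.01 (detected on 1 of 3 day 0 arrays), *Ccne2*, a partner of Cdk2 at S phase entry, by 1.00 and *Foxm1*, the activator of mitotic genes, by 0.65. The members that fell were *Mycn* (by 1.18) and *Myc* (by 1.09), transcription factors of cell growth, *Cdk4*, the D-type cyclin kinase, by 0.72 and *Cdc25a*, a CDK-activating phosphatase, by 0.27. *Cdc25a* was not called without day 4 array 1 (-0.26) or 2 (-0.24) or without day 0 array 1 (-0.24) or 2 (-0.27). *Ccnd1*, cyclin D1, differed by 0.32 and was not called.

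**Figure D3:**
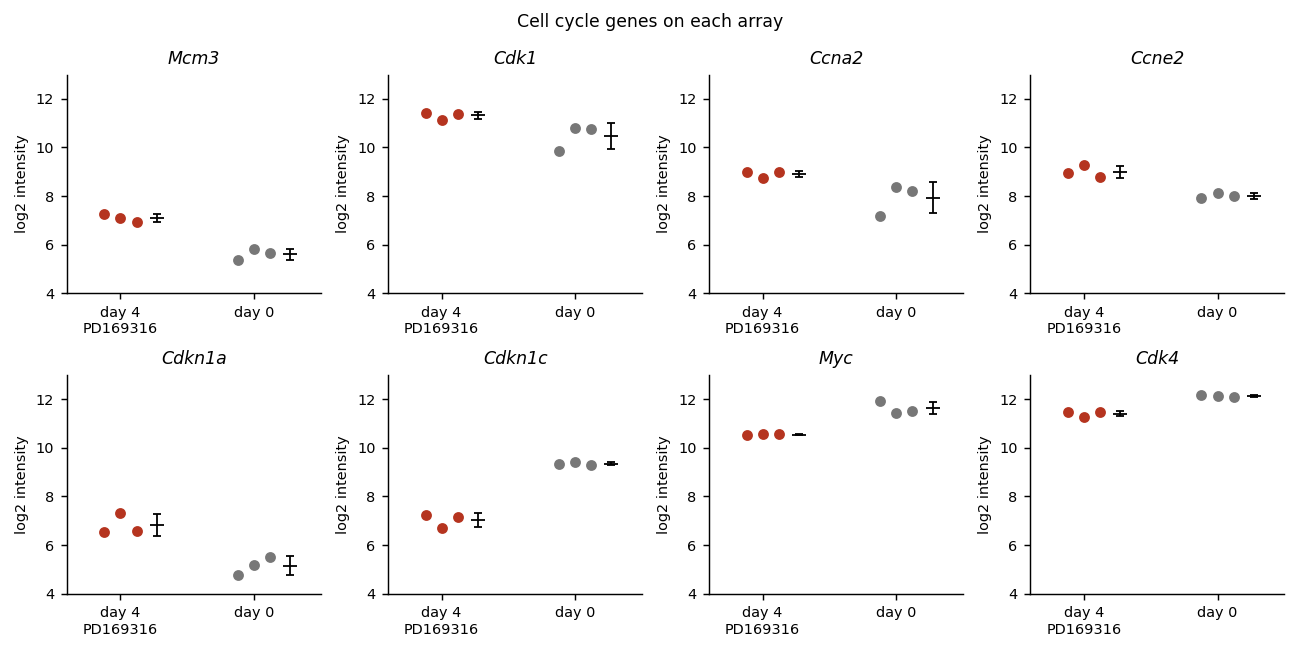
Normalized log2 intensity of 8 cell cycle genes (y axis) on each array at day 4 with PD169316 and at day 0 (x axis), with the mean and SD of 3 arrays beside each group. *Mcm3*, *Cdk1*, *Ccna2*, *Ccne2* and *Cdkn1a* are higher at day 4, and *Cdkn1c*, *Myc* and *Cdk4* are lower, with no overlap for any of them.

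The CDK inhibitors went in opposite directions. *Cdkn1a*, which encodes p21, read 6.54, 7.33 and 6.60 in day 4 PD169316 cultures and 4.76, 5.19 and 5.52 in day 0 cultures, where it was not detected, and was at least 2.44-fold higher (adjusted p = 2.8e-05). *Cdkn1c*, which encodes p57, read 7.26, 6.72 and 7.15 at day 4 with PD169316 and 9.34, 9.41 and 9.30 at day 0, 4.96-fold lower (SE 0.18 on the log2 scale, adjusted p = 6.9e-08). *Cdkn1b*, which encodes p27, read 8.96, 8.89 and 8.78 at day 4 with PD169316 and 8.99, 8.79 and 8.85 at day 0, and the groups overlapped (log2 difference 0.00, 95% interval -0.25 to 0.25). Among 15 CDK inhibitors and quiescence genes 8 were called higher and 4 lower. *Gadd45b* (1.77), *Gadd45a* (1.63) and *Ccng1* (1.14), which respond to stress and p53, rose, and *Btg1*, an antiproliferative gene, fell by 1.02. Of 24 apoptosis genes 10 were called higher and 8 lower (median 0.05). *Phlda3*, a repressor of Akt, rose by 2.91 and *Tnfrsf12a*, the TWEAK receptor, by 2.72. *Hrk*, a pro-apoptotic BH3-only gene of neural cells, was not detected at day 4 and was at least 2.68-fold lower.

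Genes of cholesterol synthesis were lower in part. Of 19 measured, 9 were called lower than at day 0, 0 higher and 10 were not called, with a median of -0.13. With 1 array left out, 6 were called lower without day 4 array 3, 7 without day 0 array 1 and 8 without any other array. *Mvd*, which makes isopentenyl diphosphate, read 11.33, 11.72 and 11.35 in day 4 PD169316 cultures and 12.65, 12.78 and 12.66 in day 0 cultures (2.35-fold lower, SE 0.10 on the log2 scale, adjusted p = 1.2e-07). *Dhcr7*, the last enzyme of the pathway, fell by 1.08, *Stard4*, a sterol carrier, by 0.81, *Fdps* by 0.77 and *Acat2* by 0.66. *Hsd17b7* (0.04, 95% interval -0.56 to 0.63) and *Idi1* (0.06, 95% interval -0.43 to 0.55) were not called. Of 27 genes of fatty acid and myelin lipid synthesis, 14 were called higher and 6 lower (median 0.26). *Cers2*, the ceramide synthase of very long chains, read 13.76, 14.02 and 13.72 at day 4 with PD169316 and 12.30, 12.35 and 12.35 at day 0, a 2.83-fold difference. *Galc*, which degrades galactosylceramide, rose by 1.20, *Me1*, the malic enzyme, by 1.06 and *Ugt8*, which makes galactosylceramide, by 0.80. *Thrsp*, a thyroid hormone-responsive regulator of lipogenesis, read 7.31, 8.37 and 7.12 at day 4 with PD169316 and was not detected at day 0 (at least 4.18-fold higher). *Scd*, a fatty acid desaturase, read 11.55, 11.54 and 11.69 at day 4 with PD169316 and 13.26, 13.12 and 13.18 at day 0, 3.01-fold lower, and *Acly*, ATP citrate lyase, fell by 1.03.

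Signalling genes of the Wnt pathway were mostly lower. Of 18 measured, 12 were called lower and 2 higher (median -0.62). Besides *Sfrp2*, the ligand *Wnt7b*, detected on 1 of 3 day 4 arrays, fell by 2.10 and *Wnt5a* by 1.28, and *Axin2*, a feedback target of the pathway, was not detected at day 4 (at least 1.13-fold lower). *Wnt4*, not detected at day 0, was at least 2.56-fold higher, and the receptor *Fzd1* rose by 0.53. Among 14 receptor tyrosine kinases 4 were called higher and 4 lower, and *Fgfr2* read 8.59, 8.65 and 8.55 at day 4 with PD169316 and 5.56, 5.76 and 5.84 at day 0, with 2 of the 3 day 0 arrays above detection, a 7.35-fold difference, while *Tyro3*, a receptor for Gas6, rose by 2.67. In the p38 pathway, the target of the inhibitor, 7 of 20 genes were called higher and 4 lower (median -0.02), or 2 lower without day 4 array 2 or day 0 array 3. *Mapk14*, which encodes p38α, read 8.99, 8.95 and 9.12 at day 4 with PD169316 and 9.61, 9.44 and 9.79 at day 0 (log2 difference -0.59, adjusted p = 0.00013), and the phosphatases *Dusp10* and *Dusp1*, which inactivate p38 and JNK, rose by 2.78 and 1.59.

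Stress-response genes were higher in part. Of 26 genes of the ATF4 and amino acid response, 12 were called higher and 3 lower (median 0.41), with *Slc7a1*, an arginine transporter, up by 1.65, *Chac1*, a glutathione-degrading enzyme, by 1.53, *Ddit3*, which encodes CHOP, by 1.43 and *Atf4* itself by 0.57, while *Slc6a9*, a glycine transporter, fell by 1.02. Of 28 oxidative stress genes, 13 were called higher and 3 lower, with *Nqo1* up by 2.00, *Hmox1*, heme oxygenase, by 1.58 and *Nfe2l2*, which encodes NRF2, by 1.01. *Hmox1* read 12.36, 12.08 and 12.43 at day 4 with PD169316 and 10.97, 10.43 and 10.74 at day 0. Of 26 genes of endoplasmic reticulum stress and chaperones, 6 were called higher, 4 lower and 16 were not called (median -0.04). Of 29 axon guidance genes 10 were called higher and 13 lower (median -0.17), and *Unc5b*, a netrin receptor, rose by 3.26. Of 87 genes of vesicle fusion and Rab proteins 20 were called higher and 22 lower (median -0.04), and *Vamp5*, a vesicle fusion protein, rose by 3.13. Ribosomal protein genes moved little, with 24 of 60 called lower and 0 higher and a median of -0.19 (14 lower without day 0 array 2). Of 56 respiratory chain subunits 6 were called higher, 4 lower and 46 were not called (median 0.01), and the 4 became 0 without day 0 array 1, 1 without day 4 array 2, and 2 without day 4 array 1 or day 0 array 2.

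The day 4 arrays were next set against the earlier stages with PD169316, to see which of these differences were already present. These comparisons share the 3 day 4 arrays with the comparison with day 0, and their values are given side by side only. Against day 1 with PD169316, 2052 probes (19.4%) were called higher and 2576 (24.4%) lower, and against day 2 with PD169316, 1074 (10.2%) were called higher and 1381 (13.1%) lower. The second count rests on the day 2 libraries that stand apart. Without day 2 control array 3 and day 2 PD169316 array 1, 4441 probes were called (2038 higher and 2403 lower), and 3981 (1843 and 2138) without day 2 PD169316 array 1 alone. Without day 2 PD169316 array 2 the count was 1168 (525 and 643), without array 3 it was 1239 (553 and 686), and without day 4 array 2 it was 1418 (596 and 822). In a fit of the 6 arrays alone, 250 probes were called (142 higher and 108 lower). List counts from these fits are read against these totals of the 10574 probes. The direction of the calls also moved with the scaling. With the deposited intensities as they stand, 2169 probes were called higher and 371 lower than at day 1, and 1066 higher and 56 lower than at day 2. With each deposited array centred on its median, 1982 were called higher and 2182 lower than at day 1, and 1321 higher and 1017 lower than at day 2.

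Genes of mature oligodendrocytes were mostly higher at day 4 than at the earlier stages. *Mal* averaged 5.63 at day 0, 7.84 ± 0.20 at day 1, 10.18 ± 0.11 at day 2 and 12.01 ± 0.57 at day 4 with PD169316 (log2 units, SD, n = 3 each), and day 4 was above day 1 by 4.17 and above day 2 by 1.83. Of the 30 genes of mature oligodendrocytes, 26 were called higher and 1 lower against day 1, and 21 higher and 1 lower against day 2 (22 higher and 2 lower without the 2 day 2 arrays that stand apart, 9 higher and 1 lower in the fit of the 6 arrays alone). The greatest rises from day 1 were of *Mal*, *Ppp1r14a* (3.85), *Ermn* (3.77), *Atp2a3*, an endoplasmic reticulum calcium pump (3.63), *Hapln2* (3.55), *Mog* (3.32), *Mobp* (3.20) and *Ppef1*, which was not detected at day 1 with PD169316 (at least 5.64-fold higher). Progenitor markers were called lower for 12 of 19 genes against day 1 and 13 against day 2, and for 14 against day 2 without those arrays and 4 in the fit of the 6 arrays. With 1 array left out the count against day 2 was 8 without day 4 array 2 or 3, 6 without day 2 PD169316 array 2 and 7 without day 2 PD169316 array 3. *Cspg4* averaged 9.82 at day 1 and 10.11 at day 2 with PD169316. With the arrays that stand apart included, it was not called at day 4 against day 1 (log2 difference -0.82, adjusted p = 0.085). Against day 2 it differed by -1.11 (adjusted p = 0.041) and, without the arrays that stand apart, by -1.62 (adjusted p = 1.8e-06), and the call was lost without any one of the day 4 arrays (-1.18 to -0.98), day 2 PD169316 array 2 (-0.87) or array 3 (-0.84). *Dlx1* was lower than at day 1 by 2.12 and than at day 2 by 1.12 on the log2 scale, and *Gad1* by 2.16 and 1.17. *Pcp4* (-2.52) was among the greatest falls from day 1, and *Hrk*, not detected at day 4, was at least 3.55-fold lower than at day 1.

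**Figure D4:**
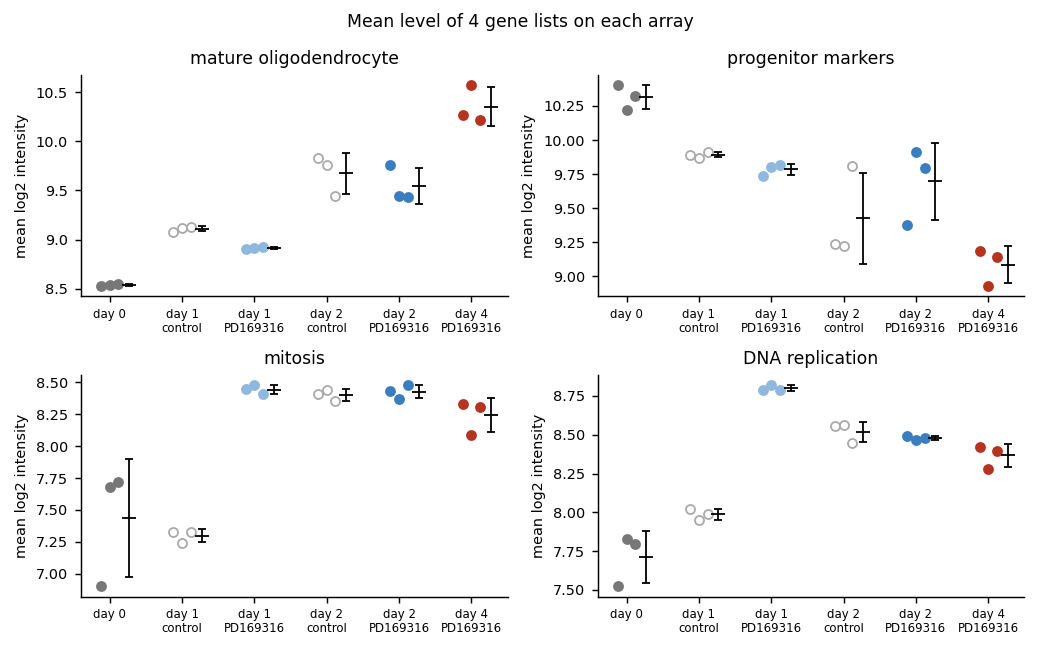
Mean log2 intensity of the measured members of 4 gene lists (y axis, 1 panel per list) on each array by stage (x axis), with the mean and SD of 3 arrays beside each group and control cultures as open points. The mature oligodendrocyte list is highest and the progenitor list lowest at day 4 with PD169316, and the mitosis list is at 6.90 on day 0 array 1 and between 8.09 and 8.33 at day 4.

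The cell cycle genes showed another course. Their rise over day 0 was already present at day 1 with PD169316: the mean level of the mitosis list was 7.43 ± 0.46 at day 0, 8.44 ± 0.04 at day 1, 8.43 ± 0.05 at day 2 and 8.24 ± 0.13 at day 4 with PD169316 (log2 units, SD, n = 3 each). In control cultures the list averaged 7.30 ± 0.05 at day 1 and 8.40 ± 0.05 at day 2. Of the 43 mitosis genes, 1 was called higher and 4 lower at day 4 against day 1 (2 higher and 15 lower in the fit of the day 4 and day 1 PD169316 arrays alone, 2 lower without day 4 array 2 or day 1 PD169316 array 2), and 1 higher and 4 lower against day 2. The one called higher in both was *Fam83d* (1.48 and 0.78), whose call against day 2 was lost without day 4 array 1 (0.82) or 2 (0.62) or day 2 PD169316 array 2 (0.71) or 3 (0.62). Against day 2, 3 genes were called higher and 4 lower without the arrays that stand apart, and 0 either way in the fit of the 6 arrays alone. DNA replication genes were lower at day 4 than at day 1 with PD169316 for 27 of 42 genes, and 0 were higher (median -0.46), while 4 were lower and 0 higher than at day 2 (5 and 1 without the arrays that stand apart, 0 and 0 in the fit of the 6 arrays). *Mcm3* averaged 5.60 at day 0, 7.95 at day 1, 7.44 at day 2 and 7.09 at day 4 with PD169316, below day 1 by 0.87 and below day 2 by 0.36 (adjusted p = 0.049). The difference from day 2 was not called without the arrays that stand apart (-0.31), nor without day 2 PD169316 array 1 (-0.31), 2 (-0.39) or 3 (-0.37) or day 4 array 2 (-0.35) or 3 (-0.27). *Cdkn1a* averaged 5.16, 5.12, 5.90 and 6.82 at the same stages. It was not detected at day 1 and was called at least 2.35-fold higher at day 4, and it differed by 0.93 from day 2, with 2 of the 3 day 2 PD169316 arrays above detection. The call against day 2 was lost without day 4 array 2 or day 2 PD169316 array 3 (0.67 each). *Ccne2* was also higher than at both, by 0.82 and 0.67.

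Cholesterol synthesis genes were then set against the earlier stages. Of the 19 cholesterol synthesis genes, 12 were called higher and 0 lower at day 4 against day 2 with PD169316 (median 0.52), and 8 higher and 2 lower against day 1 (median 0.37). Against day 2, 16 were called higher and 0 lower without the arrays that stand apart (median 0.70), where 2038 of all 10574 probes were called higher. The count was 7 higher without day 4 array 2 and 8 higher without day 2 PD169316 array 2 or array 3. It was 0 in the fit of the 6 arrays alone (median 0.52), where 142 of all probes were called higher. *Hsd17b7*, a sterol reductase, averaged 9.21 ± 0.22 at day 0, 8.07 ± 0.09 at day 1, 7.94 ± 0.64 at day 2 and 9.25 ± 0.39 at day 4 with PD169316, and *Idi1*, the isopentenyl diphosphate isomerase, 13.13, 12.32, 12.12 and 13.19. Day 4 was above day 2 by 1.31 for *Hsd17b7* (adjusted p = 0.0051) and by 1.07 for *Idi1* (adjusted p = 0.0052), and in the fit of the 6 arrays alone by 1.30 (adjusted p = 0.077) and 1.06 (adjusted p = 0.063). *Mvd* averaged 12.70 at day 0 and 11.34, 11.08 and 11.46 on days 1, 2 and 4 with PD169316. Day 4 array 2 was the highest of its group for *Mvd*, *Hsd17b7* and *Idi1*.

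**Figure D5:**
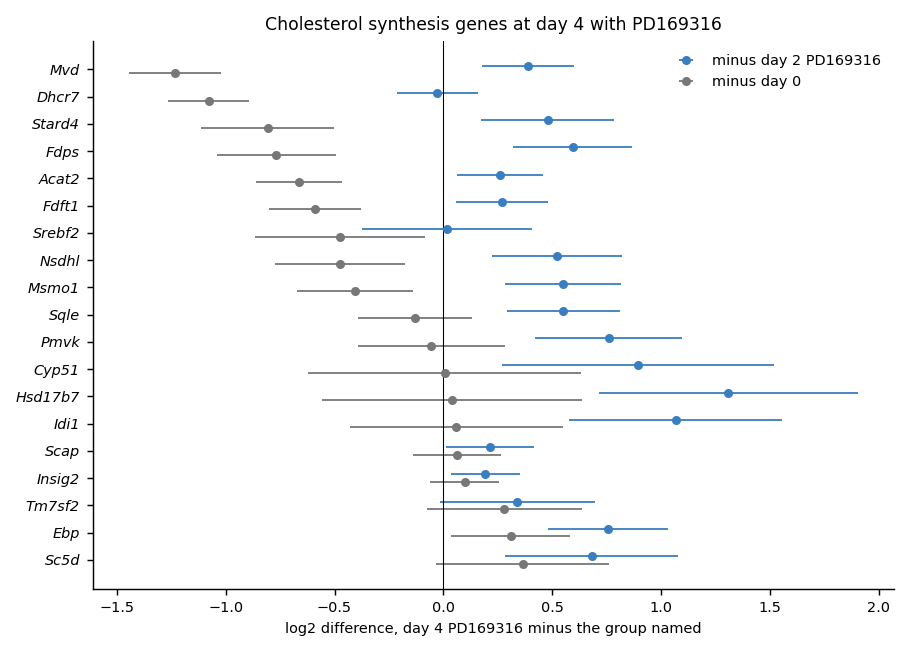
Log2 difference of 19 cholesterol synthesis genes (rows) at day 4 with PD169316 against day 0 and against day 2 with PD169316 (x axis), with 95% intervals from the fit. Against day 0, 9 genes were called lower and 0 higher, and against day 2, 12 were called higher and 0 lower.

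*Thrsp* was among the genes with the greatest rise over day 2. It averaged 7.60 ± 0.67 at day 4 with PD169316, was not detected on any day 0, day 1 or day 2 PD169316 array, and was at least 4.22-fold higher than at day 2 and at least 4.02-fold higher than at day 1. *Atp2a3* rose over day 2 by 2.32, *Cyp26b1*, which degrades retinoic acid, by 2.30, *Ermn* by 2.25, *Ppp1r14a* by 2.24, *Slc16a3*, a lactate transporter, by 2.18, *Tmem178a* by 2.15 and *Tmprss5* by 2.12. *Atp2a3* read 10.32, 9.50 and 10.17 at day 4 with PD169316 and 6.70, 7.10 and 7.41 at day 0, 7.60-fold higher. The greatest falls from day 2 were of *Sntg2*, a syntrophin (-1.79), *Wnt16* (-1.72), *Tspan33* (-1.70), *Capn6* (-1.65), *Sertad4* (-1.60), *Cfd*, complement factor D (-1.57), *Zdhhc22* (-1.49) and *Mical1* (-1.45), with *Wnt16* and *Mical1* each detected on 2 of the 3 day 4 arrays. All 16 of these genes were called without the day 2 arrays that stand apart, and 8 of them in the fit of the 6 arrays alone. With 1 array left out, *Capn6* lost its call without any of the 3 day 4 arrays (-1.89 to -1.32) and without day 2 PD169316 array 2 (-1.26) or 3 (-1.28), and *Tmprss5* without day 2 PD169316 array 2 (1.91) or 3 (1.63). *Wnt16* averaged 5.82 at day 0, 7.45 at day 1, 7.83 at day 2 and 6.11 ± 0.74 at day 4 with PD169316, and day 4 was not called against day 0 (0.29, adjusted p = 0.33) unless day 4 array 2 was left out (0.70).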

How the data were processed

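The 18 RNA samples were labelled as cRNA and hybridised to Illumina RatRef-12 BeadChips. Per the file headers, the values deposited by the authors are the mean bead intensity of each of 22523 probes, with a detection p-value per probe and array, and the deposited value table holds the same intensities with no further normalization. Background correction and quantile normalization were done from these with neqc in limma 3.58.1 (R 4.3.3, offset 16), which infers the background from the detection p-values. The filter left 10574 probes, each with a detection p under 0.01 on every array of some group. A linear model with 1 mean per group was fitted to all 18 arrays with lmFit and eBayes, which give empirical Bayes moderated tests, and p-values were adjusted over the probes kept by the method of Benjamini and Hochberg. A call is an adjusted p under 0.05. The level of a gene was that of its kept probe with the highest mean (7558 genes, named through RefSeq symbols of GRCr8), so levels were compared between arrays and never between genes. Confidence intervals are at 95%.

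The group members and the 46 gene lists were chosen with earlier results of these data known, so the counts over lists describe them. Named genes are the 15 with the greatest called difference in each direction and no overlap between arrays, up to 5 called members of a list with the greatest difference, members that ran against their list, genes the study measured on the arrays, markers of other cell types, and the 8 genes with the greatest called difference in each direction from day 1 and day 2. Other genes named were chosen after their values were seen. The fit was tested on simulated data with known changes in a small part of the probes. The values were drawn after normalization around the same mean for every array. The test therefore does not cover the scaling, the day 2 arrays that stand apart, or changes as widespread as those here. The labels number the arrays 1 to 3 in every group. Same-numbered day 4 and day 0 arrays deviated from their group means with correlations of 0.021, 0.049 and 0.074 for numbers 1, 2 and 3. The highest correlations with a day 0 array of another number were slightly lower, at 0.020, -0.022 and 0.011. These values are small and the numbers were not treated as pairs, but a fit with the number as a block is given below. Alternatives changed the normalization, the filter, the threshold and the arrays fitted. The authors' own comparisons were not used. The number of arrays limits the precision. Some items are not reported here.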

Additional observations from a re-analysis of the deposited data

How the results depend on the processing

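The comparison of day 4 PD169316 with day 0 gave 4015 to 6259 called probes under the alternatives other than the deposited values, against 5358. With the deposited intensities as they stand on the log2 scale, 3518 probes were called, 1164 higher and 2354 lower (33.1% higher against 45.7%), and the median of all probes was -0.12, against -0.03. With each deposited array centred on its median, chosen after seeing the data, 2503 were higher and 2505 lower. Under the deposited values 14 of the mitosis genes and 14 of the DNA replication genes were called higher, against 40 and 32, and after centring 41 and 33. With 1 array left out, 4688 to 4893 probes were called. With the replicate number as a block, 5411 probes were called (2483 higher and 2928 lower), and no gene named lost its call against day 0. Against day 1 and day 2 with PD169316 the block gave 4666 and 2554 probes, against 4628 and 2455. The genes named in those later comparisons were not tested with the block.

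The comparison with day 1 PD169316 gave 2540 probes under the deposited values (2169 higher and 371 lower), against 4628. The comparison with day 2 PD169316 gave 2455 probes, and 1122 under the deposited values (1066 higher and 56 lower), 250 with only the arrays compared, 6008 with array weights, 946 at an adjusted p under 0.01, 4441 without day 2 control array 3 and day 2 PD169316 array 1, and 1168 to 3981 with 1 array left out. The causes of these changes were not tested. The fit of 6 arrays has fewer arrays and so fewer degrees of freedom. With only the arrays compared, 5542 probes were called against day 0 and 5097 against day 1 with PD169316. Without day 2 control array 3 and day 2 PD169316 array 1, 5992 probes were called against day 0 (5358 with them). Against day 1 with PD169316, 5432 were called without these arrays (4628 with them). Of 167 genes named that were called between day 4 PD169316 and day 0, 145 had an adjusted p under 0.05 under every alternative, and none changed direction while called.

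With 3 arrays a group, a difference that was not called is not shown to be absent. The BeadChip as a block was not run, since the chip of each array is not given in the sources used here. Genes not detected on any array of a group have only a bound for their fold, and genes detected on some arrays lie close to the limit.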
